A study of Homo sapiens with 6 samples.

Results

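NeuroD1 was listed at 20593 distinct regions in the human small cell lung cancer cell line H524, and 8622 of them (41.9%, exact Clopper-Pearson 95% interval 41.2 to 42.5) had no listed counterpart in the second line, H82, and lay far from H3K4me3 of H524, a mark of promoter chromatin. These far H524-only regions were those of the H524 NeuroD1 peak list that overlapped no NeuroD1 region of H82 and no H3K4me3 region of either line, and that lay more than 50 kb, edge to edge, from the nearest H3K4me3 region of H524. They were chosen by their presence in 4 peak lists and by 1 distance, so their number is a description. Of the 20593 regions, 18538 had no NeuroD1 counterpart in H82, 15775 of these were also free of H3K4me3 in H524, 15154 were free of it in H82 as well, and the distance removed a further 6532.

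The study sequenced chromatin immunoprecipitated with an antibody to NeuroD1 or to H3K4me3 from cultured, untreated H524 and H82 cells. There was 1 library for each antibody in each line, and an input library made without antibody, not analysed here. Both are established cell lines grown in culture. Nothing was replicated, so the spread between replicates is unknown and the text holds no p-values. Shares carry exact 95% intervals and differences of shares carry Newcombe 95% intervals. Both cover counting error only and treat regions as independent, which neighbouring regions are not. The number of reads behind each list is unknown, and the H524 NeuroD1 list was much the longer of the NeuroD1 lists, at 20593 regions against 3854 in H82. No list could be scaled to sequencing depth, so a region listed in H524 alone is one not listed in H82, which does not show that NeuroD1 was absent there.

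NeuroD1 belongs to the neurogenic basic helix-loop-helix proteins. It pairs with ubiquitously expressed E-proteins, binds E-box sequences, and drives neuronal and endocrine differentiation, and its expression defines a neuroendocrine subtype of small cell lung cancer. H3K4me3, the trimethylated form of lysine 4 of histone H3, marks nucleosomes at active promoters, whereas distal enhancers usually carry little of it and more of the monomethylated form. NeuroD1 binding away from H3K4me3 therefore includes the class of site in which distal enhancers are found, although no enhancer mark was measured here. A gene annotation and a genome sequence in hg19, the build of the files, were not used here, so the regions are given by position alone (coordinates 1-based, hg19), without gene context, intron or exon class, or sequence.

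Far H524-only regions stood near the middle of the list in score and width. The score deposited by the authors, read as a −log10 q-value, had a median of 4.04 in far H524-only regions (interquartile range 2.47 to 6.74), against 4.11 (2.48 to 7.11) in the 6532 H524-only regions that were unmarked but within 50 kb of H3K4me3. It was 3.63 in the 3384 H524-only regions that overlapped H3K4me3 of a line, and 6.74 (4.04 to 12.01) in the 620 regions that were as far from H3K4me3 of H524 but shared with H82. The lowest score was 1.304, the lowest of the whole list. Widths followed the same order, with medians of 455 bp in far H524-only regions, 456 bp in near unmarked ones, 454 bp on the mark, and 653 bp in far shared regions. The narrowest far H524-only region measured 254 bp and the widest 3115 bp, and together they covered 4756 kb.

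The share of high-scoring regions was lower in the far H524-only class than in near unmarked or far shared regions, and higher than in H524-only regions on the mark. Of the far H524-only regions, 728 (8.44%, 7.86 to 9.05) were in the highest-scoring 10% of the list, against 10.4% (9.66 to 11.2) of near unmarked H524-only regions, a difference of −1.95 percentage points (−2.90 to −1.01). On the mark, 3.90% of H524-only regions were in this highest-scoring 10%, and the far share differed from that by 4.54 points (3.64 to 5.40). The share over all H524 NeuroD1 regions was 10.1%, slightly above 10 because tied scores were kept together. In the highest-scoring 1% the shares were 0.302% of far H524-only regions and 1.06% of near unmarked ones, a difference of −0.755 points (−1.05 to −0.493). Against the 0.266% of H524-only regions on the mark, the difference of 0.0356 points had an interval that included 0 (−0.222 to 0.224). Far shared regions reached the highest-scoring 10% in 25.5% of cases (22.1 to 29.1), and the far H524-only share was below theirs by a difference of −17.0 points (−20.7 to −13.7). Set by rank, 9 of the 100 highest-scoring regions of the list and 304 of the 1000 highest-scoring were far H524-only. The class made up 41.9% of the whole list, so it held less than its share of both. Within the members, 1060 (12.3%) scored over 10 and 146 scored over 20. The whole-list shares over exactly these scores were not computed, but ranks of slightly higher scores set a lower bound for them. In the list of 20593, a score of 10.6 had rank 2608 (percentile 87.3). A score of 20.3 had rank 584 (percentile 97.1). The class thus also held less than its share of the regions over 10 and over 20.

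**Figure D1:**
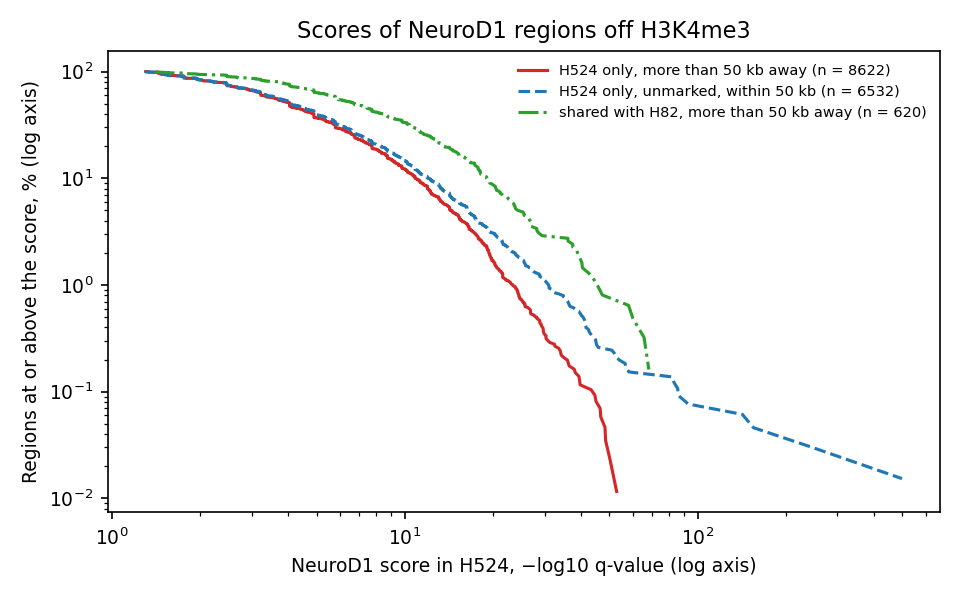
Share of regions at or above each NeuroD1 score in H524 (−log10 q-value, both axes logarithmic) for far H524-only regions, near unmarked H524-only regions and far regions shared with H82. The first and second curves run together through the low scores and part above about 10, where near regions reach 498 and far ones end at 52.9; the shared curve lies to the right of the far H524-only curve over its length.

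Regions with several summits differed little in frequency between far and near H524-only regions. More than 1 summit was listed in 926 far H524-only regions (10.7%, 10.1 to 11.4), against 11.2% (10.4 to 11.96) of near unmarked H524-only regions, and the difference of −0.436 points had an interval that included 0 (−1.45 to 0.564). The share in the whole list was 12.1%. In far shared regions it was 26.5% (23.02 to 30.1), and the far H524-only share differed from it by −15.7 points (−19.4 to −12.3). Widths over 1 kb were found in 703 far H524-only regions (8.15%, 7.58 to 8.75) and in 23.9% of far shared regions, with 9.73% in the whole list. Among far regions, those shared with H82 were thus broader and more often had several summits. A wider region more readily meets the overlap of at least 1 bp that defines sharing, so part of this difference is built into the classes. Far shared regions also scored higher, and the part of the score in their width and summit number was not tested.

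The scores were coarse at the lower end. The 8622 regions took 1270 distinct scores, and the 6 commonest of these accounted for 1683 regions (19.5%). The commonest was 1.76, with 346 regions, followed by 4.04 with 318 and 2.47 with 302. Steps of this kind leave many regions tied in rank, and the median of 4.04 is itself such a step. A score under 2 was held by 1405 far H524-only regions (16.3%, 15.5 to 17.1), near the 15.4% (14.9 to 15.9) of the whole list. It was held by 15.7% (14.9 to 16.6) of near unmarked ones, 18.2% (16.9 to 19.5) of H524-only regions on the mark and 5.81% (4.10 to 7.95) of far shared ones.

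Of the 20 highest-scoring far H524-only regions, 6 were on chromosome 14, 4 on chromosome 8 and 4 on chromosome 17. Together these chromosomes held 14 of the 20, and 13.2% of all far H524-only regions. They were picked by their count among the 20, so an excess there is built in and is not a result. First came a pair on chromosome 8, at 128925082 to 128926670 (score 52.9, rank 46 of the H524 list, 2 summits) and at 128901972 to 128905045 (score 50.2, rank 53, 5 summits, 3074 bp wide). These lay 113 and 89.6 kb from H3K4me3 of H524, and 88.8 and 65.7 kb from NeuroD1 of H82. The third, also on chromosome 8, was at 121550382 to 121551291 (score 48.5, rank 56), and its nearest NeuroD1 region of H82 was 620 kb away. The fourth, at 137675296 to 137675937 on chromosome 9 (score 48.3, rank 59), was a narrow region of 642 bp with 1 summit, 140 kb from H3K4me3 of H524 and 291 kb from both the mark and NeuroD1 of H82. It was followed by 71972838 to 71973752 on chromosome 17 (score 46.7), 91345173 to 91346207 on chromosome 14 (score 46.5) and 58778444 to 58780418 on chromosome 15 (score 45.0, 5 summits). The region on chromosome 15 had a NeuroD1 region of H82 only 4.60 kb away, whereas the one on chromosome 14 was 435 kb from any. The X chromosome entered at place 10 with 18907730 to 18909515 (score 39.7).

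The last of the 20 was at 49011999 to 49013189 on chromosome 17 (score 34.1). The 432 far H524-only regions of chromosome 8 had a median score of 3.998, and 7.41% of them were in the highest-scoring 10% of the list. Higher shares of such regions were found on chromosomes 14, 15, 16, 17, 19 and 20, between 12.2% on chromosome 14 and 15.3% on chromosome 19, and on every other chromosome the share lay between 5.09% and 9.38%. The same 6 chromosomes carried 9.72 to 15.5 NeuroD1 regions of H524 per Mb. Chromosome 22 was as dense, with 14.3 per Mb, but had a share of 9.25%.

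Every autosome and the X chromosome held far H524-only regions, and the best region of each chromosome differed in score by a wide margin. The lowest of these was on chromosome 10, at 35028973 to 35029355 (score 16.6, rank 966). Chromosomes 13 and 22 followed, with 36246862 to 36247645 (score 20.3) and 47751368 to 47752257 (score 21.1). At 145065998 to 145067348 on chromosome 6 (score 33.9) and 235304163 to 235304993 on chromosome 2 (score 29.7), the best region lay 458 and 527 kb from H3K4me3 of H524, the longest such distances among the best regions. The best of chromosome 11, at 44915377 to 44916492 (score 26.9), was 55.4 kb from the mark.

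Width and summit number picked out other regions than score did. The widest was at 62642915 to 62646029 on chromosome 1, with 3115 bp and 6 summits but a score of 10.6 and rank 2608. Others among the 5 widest were at 137661267 to 137664205 on chromosome 3 (2939 bp, score 25.1), 114751338 to 114754205 on chromosome 6 (2868 bp, score 9.78) and 85516970 to 85519817 on chromosome 16 (2848 bp, 6 summits, score 15.0). Regions with 6 summits, the most of any, also included 77460201 to 77462341 on chromosome 17 (score 19.8), 126923704 to 126926194 on chromosome 8 (score 19.6) and 128923037 to 128924822 on chromosome 8 (score 6.82). The last of these neighboured the highest-scoring far region.

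The 5 regions nearest to the limit of 50 kb scored 2.88 to 9.12 just over it and 2.47 to 6.21 just under it. Just over it lay regions at 127442280 to 127442594 on chromosome 3 (50.01 kb, score 7.62), 23295874 to 23296172 on chromosome 1 (50.04 kb, score 6.28) and 135089398 to 135089794 on chromosome 9 (50.08 kb, score 9.12). Just under it lay otherwise eligible regions at 943357 to 944110 on chromosome 5 (49.98 kb, score 6.21), 67563154 to 67563430 on chromosome 5 (49.97 kb, score 3.79) and 37704142 to 37704579 on chromosome 17 (49.94 kb, score 2.55).

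Most far H524-only regions lay well beyond the limit. The median distance to H3K4me3 of H524 was 145 kb (interquartile range 86.2 to 274 kb), and 232 regions (2.69%) lay more than 1 Mb away. The greatest distance was 3405 kb, for the region at 135174638 to 135175125 on chromosome 10, which scored 11.9. In H82 that region had H3K4me3 within 52.3 kb. The next were at 84243054 to 84243611 on chromosome 3 (2796 kb, score 3.22) and 88106763 to 88107074 on the X chromosome (2702 kb, score 1.56), followed by 83959303 to 83959565 on chromosome 9 (2612 kb) and 129165063 to 129165367 on chromosome 10 (2604 kb). Apart from the first, these 5 farthest regions scored 3.22 or less.

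Within the class, high scores and several summits were less frequent at greater distances. Far H524-only regions 50 to 75 kb from the mark were in the highest-scoring 10% of the list in 9.54% of cases (8.11 to 11.1), those 250 to 500 kb away in 7.09% (5.83 to 8.51) and those 500 to 1000 kb away in 6.33% (4.65 to 8.38). The share with more than 1 summit was 12.02% (10.4 to 13.8), 9.85% (8.38 to 11.5) and 7.74% (5.88 to 9.95) over the same classes of distance. Median widths were 469, 444 and 420 bp, and median scores were 4.06, 4.04 and 3.63. Neither median fell steadily, with 469 bp and 4.08 at 100 to 150 kb and 424 bp and 3.92 beyond 1000 kb. The share in the highest-scoring 10% was flat up to 150 kb, at 9.55% for 75 to 100 kb and 9.40% for 100 to 150 kb. It was 8.16% at 150 to 250 kb and 5.60% beyond 1000 kb. The intervals of the nearest and the 500 to 1000 kb class overlapped slightly for score and not for summits.

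Relative to the genome available at each distance, NeuroD1 of H524 alone thinned out slowly. Unmarked H524-only regions numbered 10.9 per Mb within 5 kb of H3K4me3 of H524, 7.40 per Mb at 5 to 10 kb and 6.82 per Mb at 25 to 50 kb. Beyond the limit they numbered 6.39 per Mb at 50 to 100 kb, 5.42 at 100 to 250 kb, 3.53 at 250 to 500 kb and 2.26 at 500 to 1000 kb. The far class thus began at nearly the density found just inside the limit. Some of this sequence lay in long stretches with no region in any list. With empty stretches of more than 1 Mb left out, a choice made after the values were seen and one that can only raise a density, the values at 250 to 500 kb, 500 to 1000 kb and beyond 1000 kb were 4.10, 3.53 and 3.34 per Mb, against 6.52 per Mb at 50 to 100 kb.

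Regions shared with H82 were also sparser at greater distances. Unmarked shared regions numbered 0.541 per Mb at 50 to 100 kb, 0.369 at 100 to 250 kb, 0.262 at 250 to 500 kb, 0.0888 at 500 to 1000 kb and 0.0534 beyond 1000 kb. Of all unmarked H524 regions 50 to 75 kb from the mark, 137 of 1668 (8.21%, 6.94 to 9.64) were shared with H82, 6.10% (5.05 to 7.29) at 150 to 250 kb, 6.91% (5.71 to 8.27) at 250 to 500 kb, 28 of 739 (3.79%, 2.53 to 5.43) at 500 to 1000 kb and 5.69% (3.15 to 9.36) beyond 1000 kb. The share was thus highest next to the limit and did not fall steadily with distance. Over all distances, 620 of 9242 far unmarked regions (6.71%, 6.21 to 7.24) and 610 of 7142 near unmarked regions (8.54%, 7.90 to 9.21) were shared, a difference of −1.83 points (−2.66 to −1.01). Presence in H82 is part of what defines the far H524-only class, so these shares describe its complement. Sharing rose with score in both, so the comparison was repeated in 10 classes of the list by score. Far regions had the lower share in 7 of them, but the interval of the difference excluded 0 only in the second and the third (−3.22 points, −6.43 to −0.0885, and −3.48 points, −6.43 to −0.653). In the highest class the shares were 17.8% (15.4 to 20.5) far and 20.9% (18.2 to 23.7) near.

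**Figure D2:**
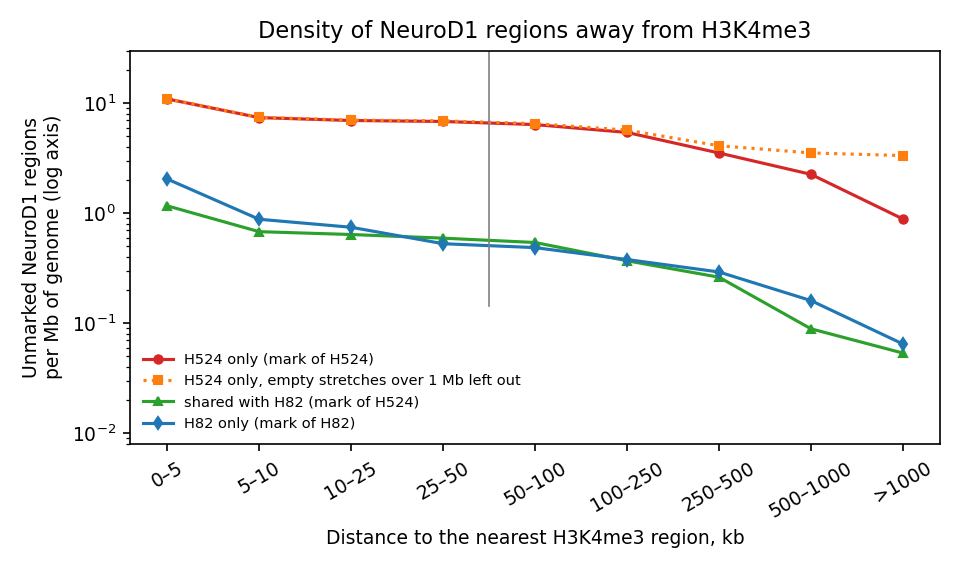
Unmarked NeuroD1 regions per Mb of genome (logarithmic axis) by distance to the nearest H3K4me3 region, with a line at the limit of 50 kb. H524-only regions stood at 6.82 per Mb just inside the limit and 6.39 just outside; leaving out empty stretches over 1 Mb raised the value beyond 1000 kb to 3.34 from 0.885; regions shared with H82, and regions listed in H82 alone measured against the mark of H82, lay lower throughout.

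Applying the same rule with the lines exchanged gave a smaller class in H82. Far from their own mark were 8622 of 15154 unmarked H524-only regions (56.9%, 56.1 to 57.7), against 648 of 1328 unmarked H82-only regions (48.8%, 46.1 to 51.5), a difference of 8.10 points (5.30 to 10.9). Of the whole list, the far single-line class made up 41.9% in H524 and 16.8% (15.6 to 18.0) in H82. Neither comparison is adjusted for the length of the lists. The far class also resembled its near counterpart in both lines. Median score percentiles within the list were 48.4 far and 50.8 near in H524, and 39.9 for both in H82, and median widths were 455 and 456 bp in H524 and 376 and 382 bp in H82.

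H3K4me3 of H82 was not part of the distance rule and allowed the surroundings of these regions to be compared between lines. For most far H524-only regions the mark was remote in H82 too, with a median distance of 151 kb. A minority of 917 (10.6%, 9.99 to 11.3) lay within 50 kb of H3K4me3 of H82, where the share over all H524 NeuroD1 regions was 50.5%, and 309 (3.58%, 3.20 to 3.998) lay within 10 kb, where it was 29.3%. The distance limit in H524 lowers these shares, since the mark is often at the same place in both lines. The rule also removed regions that overlap H3K4me3 of H82, which the whole-list shares count as near. Far shared regions, chosen with the same limit, had H3K4me3 of H82 within 50 kb in 22.7% of cases (19.5 to 26.2) and within 10 kb in 11.6% (9.20 to 14.4). The far H524-only shares differed from these by −12.1 points (−15.6 to −8.91) and −8.03 points (−10.8 to −5.70). Shared regions lie by rule at NeuroD1 of H82, which was denser near the mark of its own line. Unmarked H82-only NeuroD1 regions numbered 2.05 per Mb within 5 kb of that mark and 0.486 per Mb at 50 to 100 kb. A higher share of shared regions near the mark of H82 is thus partly built into the classes.

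The difference between the far H524-only and far shared classes was found in all 5 score classes examined. Division by score does not remove the part that the class rule builds in. In far H524-only regions the share within 50 kb of H3K4me3 of H82 was nearly constant over 5 classes of the list by score, between 10.2% and 10.9%. In far shared regions it was 17.9% (13.3 to 23.2) in the highest class, on 252 regions, and 33.3% (19.6 to 49.5) in the lowest, on 42 regions. The difference was −7.10 points (−12.498 to −2.56) in the highest class and −22.5 points (−37.6 to −10.1) in the lowest, and its interval excluded 0 in each of the 5.

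**Figure D3:**
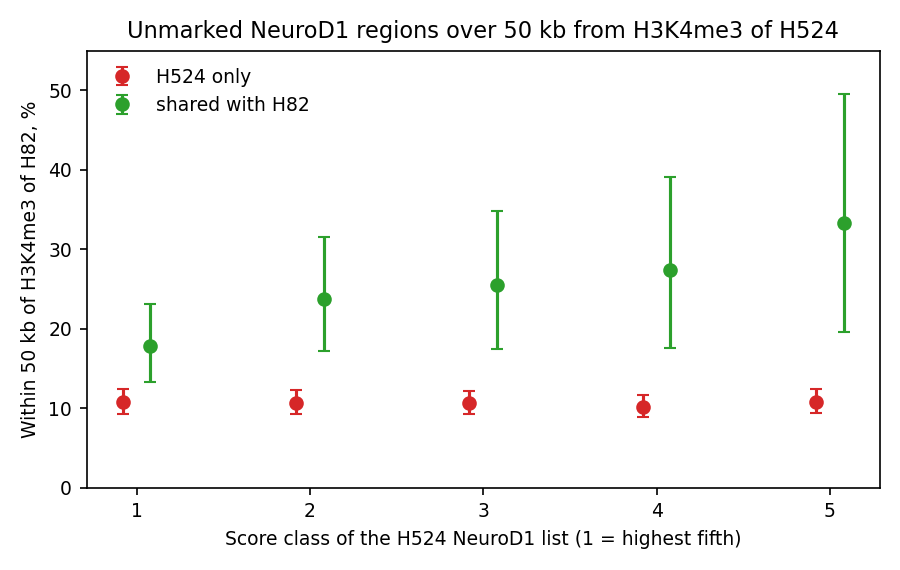
Share of unmarked NeuroD1 regions more than 50 kb from H3K4me3 of H524 that lay within 50 kb of H3K4me3 of H82, by score class of the H524 list, for H524-only regions and regions shared with H82; points are shares and bars exact 95% intervals. H524-only regions stayed between 10.2% and 10.9%, and shared regions ran from 17.9% in the highest class to 33.3% in the lowest.

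The H82 marks beside far H524-only regions were like other H3K4me3 regions listed in H82 alone. The 309 regions within 10 kb of one had 243 different H3K4me3 regions of H82 as their nearest, all without an H3K4me3 counterpart in H524. The distance limit of 50 kb in H524 fixes this for narrow marks, so it is not a result. The 243 had a median score percentile of 34.5 among the H3K4me3 regions of H82 and a median width of 393 bp. Over all 8673 H3K4me3 regions of H82 without such a counterpart the values were 34.5 and 412 bp. The highest-scoring of the 309 was at 105642455 to 105642994 on chromosome 14 (NeuroD1 score 36.4), 4.36 kb from an H3K4me3 region of H82 of 300 bp (score 3.59). The second, at 49011999 to 49013189 on chromosome 17, was 2.87 kb from an H3K4me3 region of H82 (score 4.06) and 3.17 kb from a NeuroD1 region of H82. The third, at 78042456 to 78043175 on chromosome 8 (NeuroD1 score 29.7), lay 69 bp from an H3K4me3 region of H82 that scored 1.47, near the lowest score of its list. The next in score were at 178424102 to 178425425 on chromosome 3 (score 24.4) and 3814362 to 3814924 on chromosome 12 (score 20.3).

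NeuroD1 of H82 was seldom close by. The median distance from a far H524-only region to the nearest NeuroD1 region of H82 was 295 kb (interquartile range 96.5 to 746 kb). It was 151 kb in near unmarked H524-only regions and 166 kb over the whole list, which includes the shared regions. Within 10 kb, without overlap, lay 488 regions (5.66%, 5.18 to 6.17), against 9.58% (8.88 to 10.3) of near unmarked H524-only regions, a difference of −3.92 points (−4.80 to −3.07), and 7.45% of the whole list. Regions shared with H82 overlap its NeuroD1 and cannot be counted here, which lowers the whole-list share. Within 1 kb lay 85 regions (0.986%), whose median score was 3.02, against 1.68% of near unmarked H524-only regions and 1.66% of the whole list. Among far H524-only regions, those near the promoter mark of H82 were also more often near its NeuroD1. Of the 309 regions within 10 kb of H3K4me3 of H82, 85 (27.5%, 22.6 to 32.8) also had NeuroD1 of H82 within 10 kb, against 403 of the other 8313 (4.85%, 4.40 to 5.33), a difference of 22.7 points (18.0 to 27.9). These shares were not computed for other classes of region, so they are not read as a trait of the far H524-only class. The 309 regions have only 243 nearest marks between them, so the intervals are too narrow.

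Far H524-only regions were partly grouped along the chromosomes. Another NeuroD1 region of H524, of any class, was found within 12500 bp of 3557 of them (41.3%, 40.2 to 42.3), against 55.1% (53.9 to 56.3) of near unmarked H524-only regions, 41.0% (37.1 to 45.0) of far shared regions and 46.5% of the whole list. The difference from near regions was −13.8 points (−15.4 to −12.2), and that from far shared regions was 0.287 points with an interval of −3.76 to 4.23. The median gap to the nearest other NeuroD1 region of H524 was 21.2 kb in the far H524-only class, 9.67 kb in the near unmarked class and 22.5 kb in the far shared class.

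Chaining far H524-only regions with gaps of up to 12500 bp gave 5288 single regions (61.3%) and 1346 runs of 2 or more, which held 3334 regions (38.7%, 37.6 to 39.7). Most runs were short, with 968 of 2 regions and 240 of 3. Runs of 5 or more numbered 58 and held 358 regions over a median span of 21.5 kb. Median scores were close whatever the grouping, with 4.04 in single regions, 4.04 in runs of 2 or more and 4.25 in runs of 5 or more. NeuroD1 of H82 was within 10 kb of 53 of the 358 regions in these longer runs (14.8%, 11.3 to 18.9), against 200 of the 5288 single regions (3.78%, 3.28 to 4.33) and 5.66% of all far H524-only regions. Within 50 kb the shares were 40.5% (35.4 to 45.8) in longer runs and 12.1% (11.3 to 13.0) in single regions. Regions of a run share their surroundings, so the intervals are too narrow.

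The longest run lay on chromosome 16, from 85449075 to 85532594, and held 19 far H524-only regions over 83.5 kb. Their scores ran from 1.34 to 15.0 with a median of 4.15, and the highest was the region of 6 summits at 85516970 to 85519817. Both strong and very weak regions stood in it, with 4 of the 19 having several summits. The same span held 22 NeuroD1 regions of H524 in all, 3 NeuroD1 regions of H82 and 1 H3K4me3 region of H82. It belonged to the stretch with most far regions in the genome, between the H3K4me3 regions of H524 that flank 85206570 to 85587902, where 41 far H524-only regions were listed among 53 NeuroD1 regions of H524, against 5 in H82.

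The second run, on chromosome 19 from 38525002 to 38568970, held 11 regions over 44.0 kb, of which 5 had several summits, with a median score of 6.65 and a highest of 16.2. It included 2 NeuroD1 regions of H82. The third, on chromosome 3 from 171081487 to 171119987, held 10 regions (median score 3.94, highest 12.2) and stood out for its distance from NeuroD1 of H82, which was 1376 kb. The fourth, on chromosome 12 from 125212355 to 125250013, also held 10 regions, but none scored above 6.55. The last of the 5, on chromosome 14 from 70138215 to 70181536, held 9 regions, of which 6 had several summits, and had the highest single score of these runs at 24.1.

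**Figure D4:**
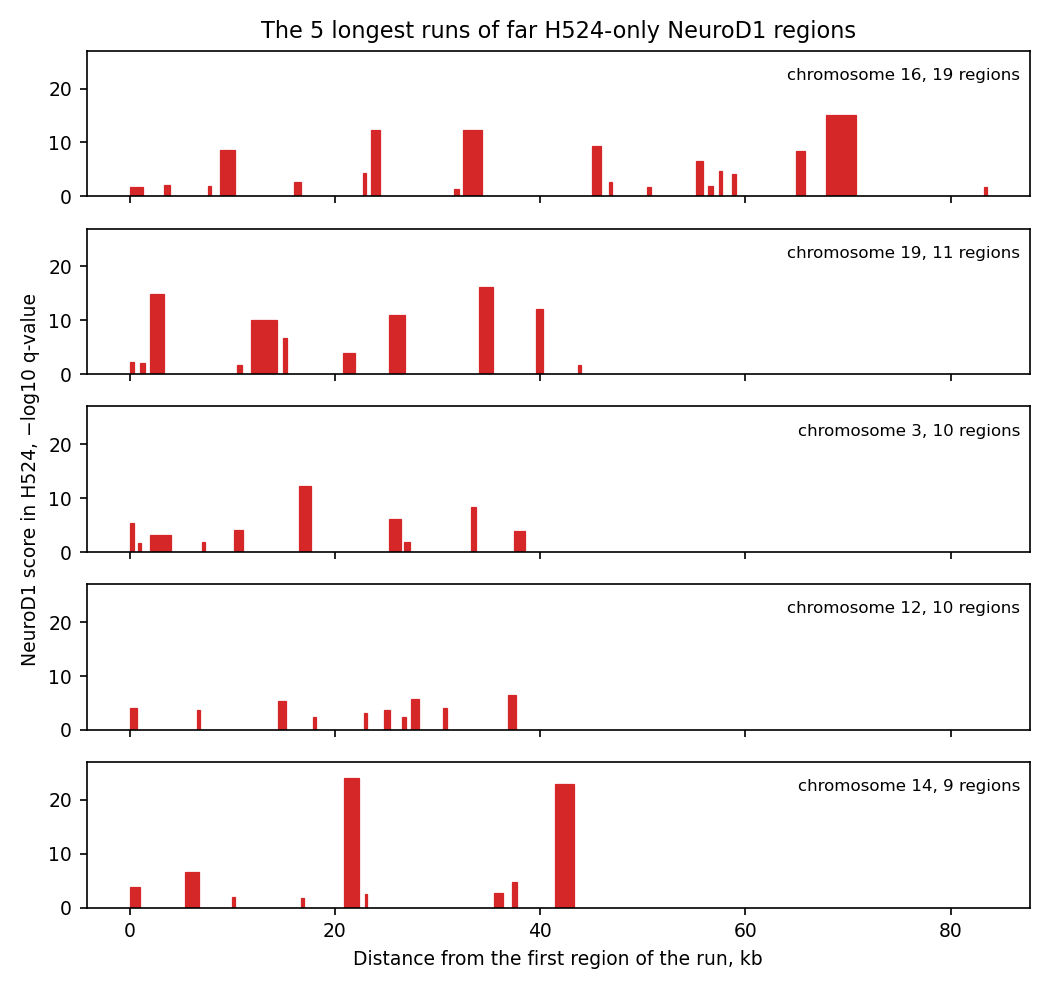
Position, width and NeuroD1 score (−log10 q-value) of each far H524-only region in the 5 longest runs, by distance from the first region of the run in kb; each bar is 1 region, as wide as the region. Scores above 10 and below 2 both occur in every run except that on chromosome 12, where all bars are at or below 6.55, and the run on chromosome 14 has the tallest bar at 24.1.

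The regions filled the stretches between promoter marks unevenly. Between neighbouring H3K4me3 regions of H524 there were 5662 stretches of more than 100 kb, the only ones with room for a region over 50 kb from both ends, and 2586 of them (45.7%) held at least 1 far H524-only region. The 566 stretches with most of them held 54.4% of the 8605 regions that lay in such stretches. The other 17 lay beyond the first or last mark of a chromosome. These 566 were picked by that count, and the part of stretch length in their share was not tested. A stretch of 100 to 200 kb held a far region in 19.5% of cases (17.9 to 21.2) and one of 1000 to 2000 kb in 81.8% (77.5 to 85.7). Per Mb of sequence more than 50 kb from the mark, however, short stretches were the fuller, with 7.24 regions per Mb at 100 to 200 kb, 6.92 at 300 to 500 kb, 5.28 at 500 to 1000 kb and 3.28 at 1000 to 2000 kb.

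Stretches with a far H524-only region were longer than those without, with median lengths of 397 and 170 kb, and less often lacked NeuroD1 of H82. No NeuroD1 region of H82 was listed in 1610 of the 2586 with a far region (62.3%, 60.4 to 64.1), against 2537 of the 3076 without (82.5%, 81.1 to 83.8) and 73.2% of all 5662, and the share with a far region differed from that without by −20.2 points (−22.5 to −17.9). No H3K4me3 region of H82 was listed in 49.3% (47.4 to 51.3) of those with a far region and 57.9% (56.2 to 59.7) of those without. The part of length in these differences was not tested. There were 140 stretches with 10 or more far regions, which held 1915 of them (22.2%) and had a median length of 1010 kb. In 43 of these 140 (30.7%, 23.2 to 39.1), H82 had no NeuroD1 region. The fullest of the 43 had 18 far regions each, on chromosome 2 at 7006353 to 8499850, on chromosome 15 at 66163387 to 66545324 and on chromosome 3 at 71834105 to 72494528. After the stretch on chromosome 16, those with most far regions overall were 46131699 to 47441379 on chromosome 20 (27 regions, with 2 NeuroD1 regions of H82), 70682169 to 72437291 on chromosome 13 (26 regions, with 4 of H82) and 69072215 to 70060767 on chromosome 7 (25 regions, with 2 of H82 and no H3K4me3 of H82). By fixed blocks of 1 Mb, 2127 held a far region, with a median of 3, and 14 held 20 or more. A block of chromosome 16 led again, with 45 regions from 85 to 86 Mb. Next came chromosome 7 with 25 regions from 69 to 70 Mb and chromosome 1 with 24 from 37 to 38 Mb.

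The share of NeuroD1 regions in the far H524-only class varied widely between chromosomes. It was highest on chromosome 10, at 92 of 141 regions (65.2%, 56.8 to 73.1), followed by chromosome 4 with 57.3% (52.8 to 61.6) and chromosome 5 with 52.9% (50.1 to 55.7). It was lowest on chromosome 19, at 59 of 659 (8.95%, 6.89 to 11.4), and on chromosome 17, at 22.6% (20.3 to 25.02). H3K4me3 of H524 was listed at 1.07 regions per Mb on chromosome 10 and 2.61 on chromosome 4, against 32.7 on chromosome 19 and 14.2 on chromosome 17. The rule requires distance from the mark, so a lower share where marks are dense is built into it, and nothing further is read from this order.

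**Figure D5:**
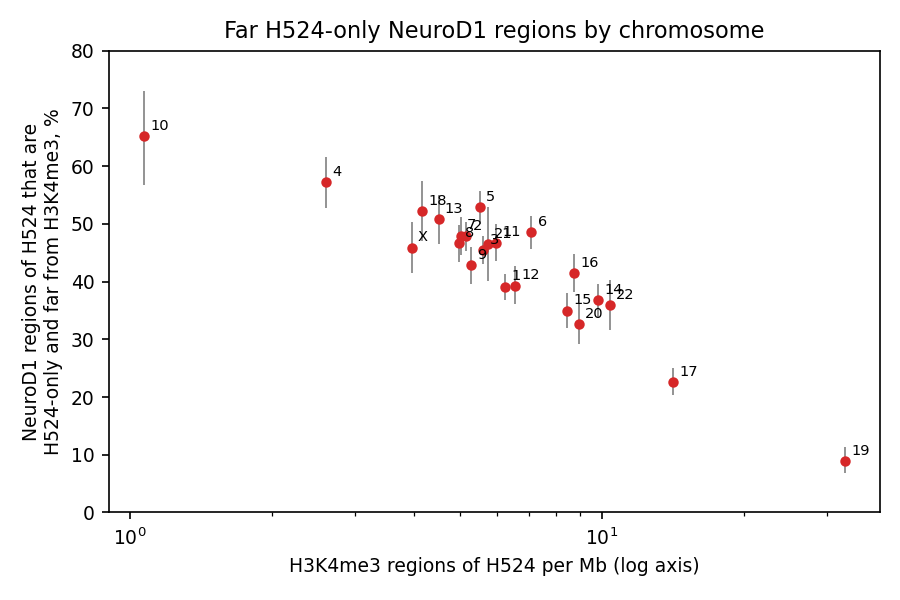
Share of the H524 NeuroD1 regions of each chromosome that were H524-only and far from H3K4me3 (points, with exact 95% intervals) against H3K4me3 regions of H524 per Mb (logarithmic axis). Chromosome 10 stands at 65.2% with 1.07 marks per Mb and chromosome 19 at 8.95% with 32.7.

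Chromosome 10 was thinly covered in both H524 lists, with 1.05 NeuroD1 and 1.07 H3K4me3 regions per Mb, against 4.10 H3K4me3 regions per Mb in H82. Of its 92 far H524-only regions, 18 lay more than 1 Mb from the mark of H524, and 20.7% (12.9 to 30.4) lay within 50 kb of the mark of H82, against 10.6% over all far H524-only regions. The part of this sparse coverage in the share of far regions was not tested. Higher shares within 50 kb of the mark of H82 were also found on chromosome 19 (23.7%, 13.6 to 36.6), chromosome 17 (18.0%, 13.7 to 23.004) and chromosome 1 (17.1%, 14.4 to 19.99). These carried 8.62 to 17.8 H3K4me3 regions of H82 per Mb. Chromosome 12, with 8.17 per Mb, had a share of 10.5%. Per Mb, far H524-only regions were most frequent on chromosome 22 (5.12), chromosome 14 (4.85) and chromosome 15 (4.23), and least frequent on chromosome 10 (0.686) and chromosome 19 (1.003).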

How the data were processed

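The submitters' processing notes name build hg19 and the tools MACS2 2.1.1, Bowtie 1.1.2, R 3.5.1, ChIPseeker 1.18.0, Trimmomatic 0.38, Picard 1.118, bcl2fastq 1.8.4 and SAMtools 1.9. Not given in the sources used here is how they were set or whether inputs were used. The deposited score was read as a −log10 q-value from its lowest value, since no header states it, and was used only within a list. Entries with identical intervals (1 per summit) were merged, keeping the highest score. Overlap meant at least 1 bp in common. The member count was checked with bedtools 2.31.1 and the classification was tested on simulated data, under Python 3.11.15 with pandas 2.3.3, numpy 2.4.6, matplotlib 3.10.9 and scipy 1.17.1. Density used each chromosome's span from its first listed region to its last. Named regions are the highest-scoring, widest, farthest, most-summit and threshold regions, the longest runs, the best of each chromosome and the best beside the H82 mark. The members, the rule for named regions and the measures were chosen with earlier results of these data known. Planned gene lists, gene context and E-box content need hg19 annotation and sequence, which were not used here. The depth of each library is unknown.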

Additional observations from a re-analysis of the deposited data

How the results depend on the processing

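Of 52 recomputed values of 6 results, 28 stayed within the counting interval of the reported value, or within 1.5-fold of the count. The tally is not a measure of stability. Some settings fix the direction of a move, as a minimum score raises the median score and a wider window raises a share. Tied scores also left the interval of the median score without width. Dropping the lower-scoring regions of every list, below its median, left 5741 far H524-only regions, which were 52.4% of the shortened list, with a median score of 6.69, a median width of 573 bp and 26.0% with another within 12500 bp. A distance limit of 25 kb gave 53.1% of the list, 24.0% within 50 kb of H3K4me3 of H82 and 40.04% with a neighbour, and a limit of 100 kb gave 28.3%, 8.65% and 37.0%. Counting gaps of up to 1 kb as overlap gave 41.1% of the list and 9.62% near the H82 mark, and testing only the centre of a region gave 43.0% and 11.4%. A minimum score of 2 gave a median score of 4.68, a median width of 488 bp and 33.9% with a neighbour. Joining regions within 500 bp gave a width of 462 bp and 34.9% with a neighbour. Near the H82 mark were 6.33% at 25 kb and 34.7% at 100 kb, and 27.1% had a neighbour within 5 kb and 49.5% within 25 kb. Leaving out chromosome 8 moved none of the 6 results beyond these limits, with 41.6% of the list in the class. No paired analysis was possible because each antibody and line had 1 library. The E-box alternatives were not run. Unknown depth limits every statement on absence from a list.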
